A study of Mus musculus with 6 samples.

Results

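The genes described here encode the transporters that carry sugars, amino acids, small peptides and some vitamins and organic acids across the enterocyte. They are 40 solute carrier (Slc) genes, chosen by name from what their products carry, with earlier results of these data known. All 40 were found by symbol among the 19616 genes of the deposited count table. RNA-Seq was performed on jejunal intestinal epithelial cells (IEC) that had been enriched with EDTA from 3 control and 3 Hdac1/2-deleted mice aged 3 months. Control mice were wild-type (C1, C3 and C3-3). Mutant mice were villin-Cre Hdac1-/-; Hdac2-/- (H1, H5 and H9), in which the villin promoter drives Cre recombinase in the epithelium, so that both histone deacetylase genes are lost there and not in other cells. The lines had a mixed C57BL/6J, 129SV and CD1 background. The labels give 1 library per mouse, and no batch or sex. Between 36111035 (H5) and 65902344 (C1) reads per mouse were counted on genes.

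In the small intestine, digestion ends at the brush border, where monosaccharides, free amino acids and di- and tripeptides enter the enterocyte through apical transporters, many of them driven by sodium or proton gradients and others facilitative or exchanging. They leave on the basolateral side through facilitative carriers and exchangers, several of which work only as pairs of a light chain (Slc7 family) and a heavy chain (Slc3 family). Other family members are found in most cells, where they supply nutrients for growth rather than for transfer to blood.

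Levels are given as CPM, meaning counts scaled to a common library size with the library total and edgeR's TMM factor. A gene is described as increased or decreased when its p-value from the edgeR quasi-likelihood F test, adjusted by the Benjamini-Hochberg (BH) method over all 15618 genes tested, was at most 0.05 and the difference was at least 2-fold. Errors of log2 fold changes (Hdac1/2-deleted over control) are standard errors, and those of levels are SD with n = 3 mice. With 3 mice per group, 0.10 is the smallest p an exact two-sided permutation can reach.

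The targeted genes were examined first. Hdac1 was at 39.1, 34.5 and 48.9 CPM in C1, C3 and C3-3, and at 3.97, 2.53 and 4.81 CPM in H1, H5 and H9. Hdac2 was at 27.7 ± 4.72 CPM in control and 24.5 ± 2.70 CPM in Hdac1/2-deleted IEC, and the groups overlapped. Hdac1 thus separated the libraries as labelled, whereas the total Hdac2 count did not. The part of Hdac2 that is deleted was not analysed here. C3 was the only mouse with Y-linked transcripts beyond a few reads (Eif2s3y at 26.6 CPM, and at most 0.0675 CPM in any other mouse), so that the sexes were not balanced between the groups.

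The epithelial identity of the fractions was checked with marker genes. The summed level of 7 epithelial markers, led by Krt8, was 8257 ± 549 CPM in control and 7620 ± 700 CPM in Hdac1/2-deleted IEC. Of 12 enterocyte markers, 4 were decreased (Fabp2, Apoa4, Lct and Treh) and 1 was increased (Alpi). Alpi no longer met the rule without C1 (log2 fold change 0.93), C3-3 (edgeR BH-adjusted p = 0.061), H1 (0.059) or H5 (0.051). Their sum was 91235, 106271 and 103842 CPM in control mice and 46597, 39156 and 52543 CPM in Hdac1/2-deleted mice, with Apoa4 as the most abundant gene in control IEC (38393 CPM) and Apoa1 in Hdac1/2-deleted IEC (13216 CPM). Vil1, whose promoter drives the Cre, was at 4218 ± 716 and 3048 ± 449 CPM. The fractions were therefore epithelial in both groups, with a lower summed level of enterocyte markers in every Hdac1/2-deleted mouse. In bulk samples of this kind, fewer cells of a type and less RNA per cell cannot be told apart, and the part of this difference in the results below was not tested.

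Of the 40 transporter genes, 38 passed the filter on low counts. Of these, 7 (18.4%) were increased, beside 12.4% of all genes tested, and 12 (31.6%) were decreased, beside 12.7% of all genes tested. The 7 include Slc43a1, which passed the filter through the Hdac1/2-deleted mice and could have shown an increase only. Because the list was chosen with earlier results of these data known, these shares describe it and do not test it. By adjusted p alone, 8 were higher and 16 were lower in Hdac1/2-deleted IEC, where the shares over all genes were 20.5% and 20.3%. The ranges of the groups did not overlap for 9 transporters that were higher (26.7% of all genes) and 17 that were lower (26.6% of all genes) in Hdac1/2-deleted mice. The median log2 fold change was -0.18 for the transporters and -0.01 for all genes tested, while the median size of the change regardless of direction was 1.11 and 0.59. Under scaling by library totals without TMM, the median over all genes moved to 0.18 and that of the transporters to 0.02. The median of the transporters was -0.43 without C1 (all genes 0.03) and -0.02 without C3-3 (all genes -0.00). Differences between these medians were not tested. The counts differed between roles, and this difference was not tested. Decreased were 4 of 5 sodium-coupled sugar transporters, the 1 peptide transporter and 4 of 7 tested apical amino acid transporters, with 0 increased (edgeR). Of 4 facilitative sugar transporters, which include the apical Slc2a5 and Slc2a7, 1 was increased and 0 decreased. Of 5 basolateral amino acid transporters 1 was increased and 0 decreased, and of 5 vitamin and monocarboxylate transporters 0 and 2. The 2 heavy chains did not change by this rule. In the remaining group of amino acid carriers, 5 of the 9 tested were increased and 1 decreased.

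**Figure D1:**
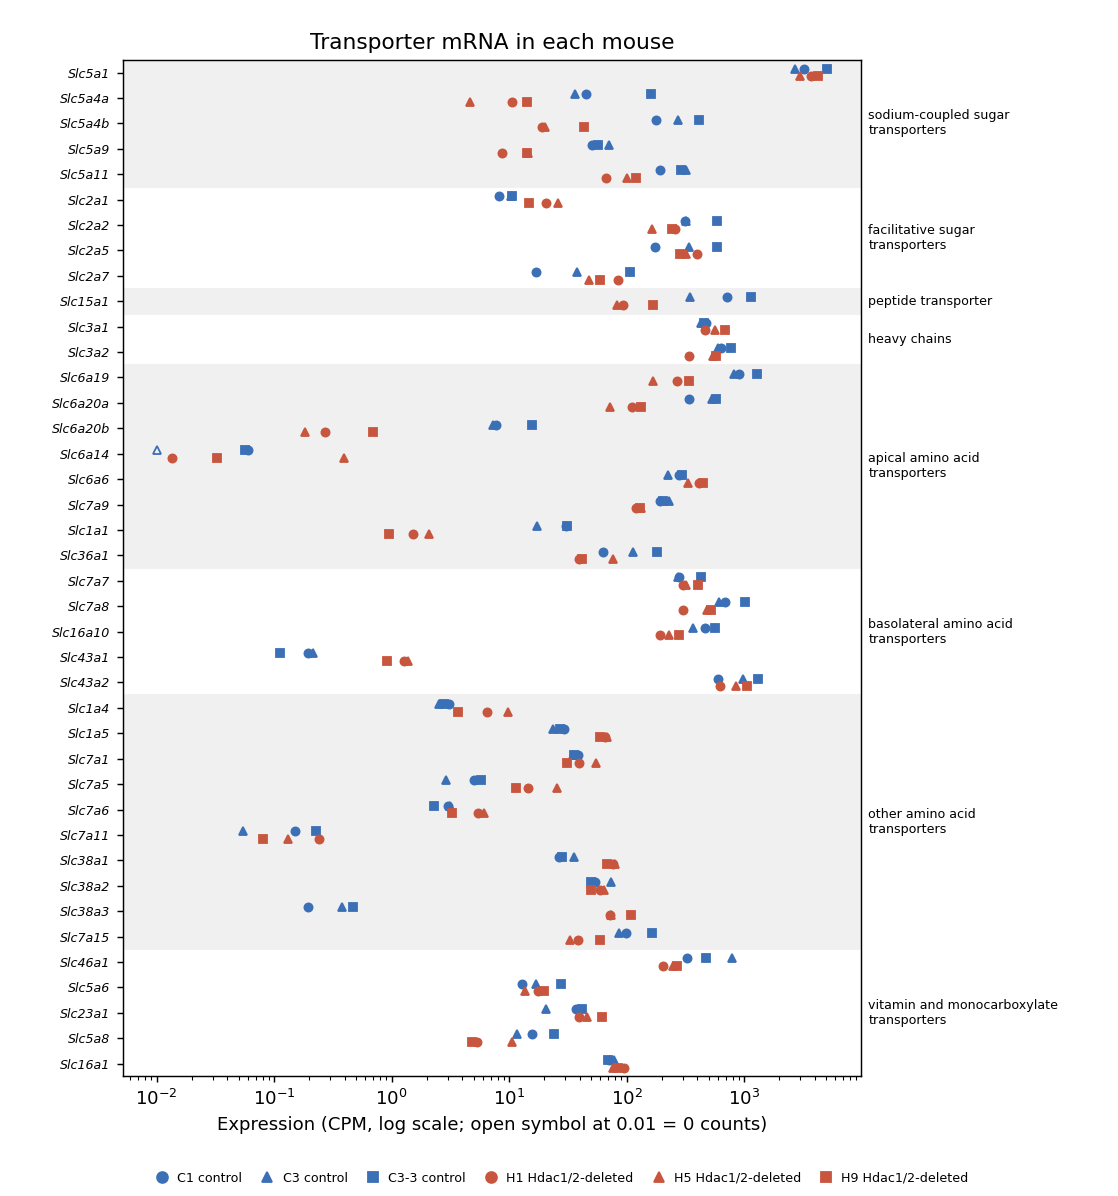
Level of each of the 40 transporters in each mouse (CPM, log axis), grouped by role, with control mice in blue and Hdac1/2-deleted mice in red. Slc38a3 lies below 0.5 CPM in all 3 control mice and above 72 CPM in all 3 Hdac1/2-deleted mice, and Slc1a1 and Slc6a20b show wide gaps in the opposite direction.

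**Figure D2:**
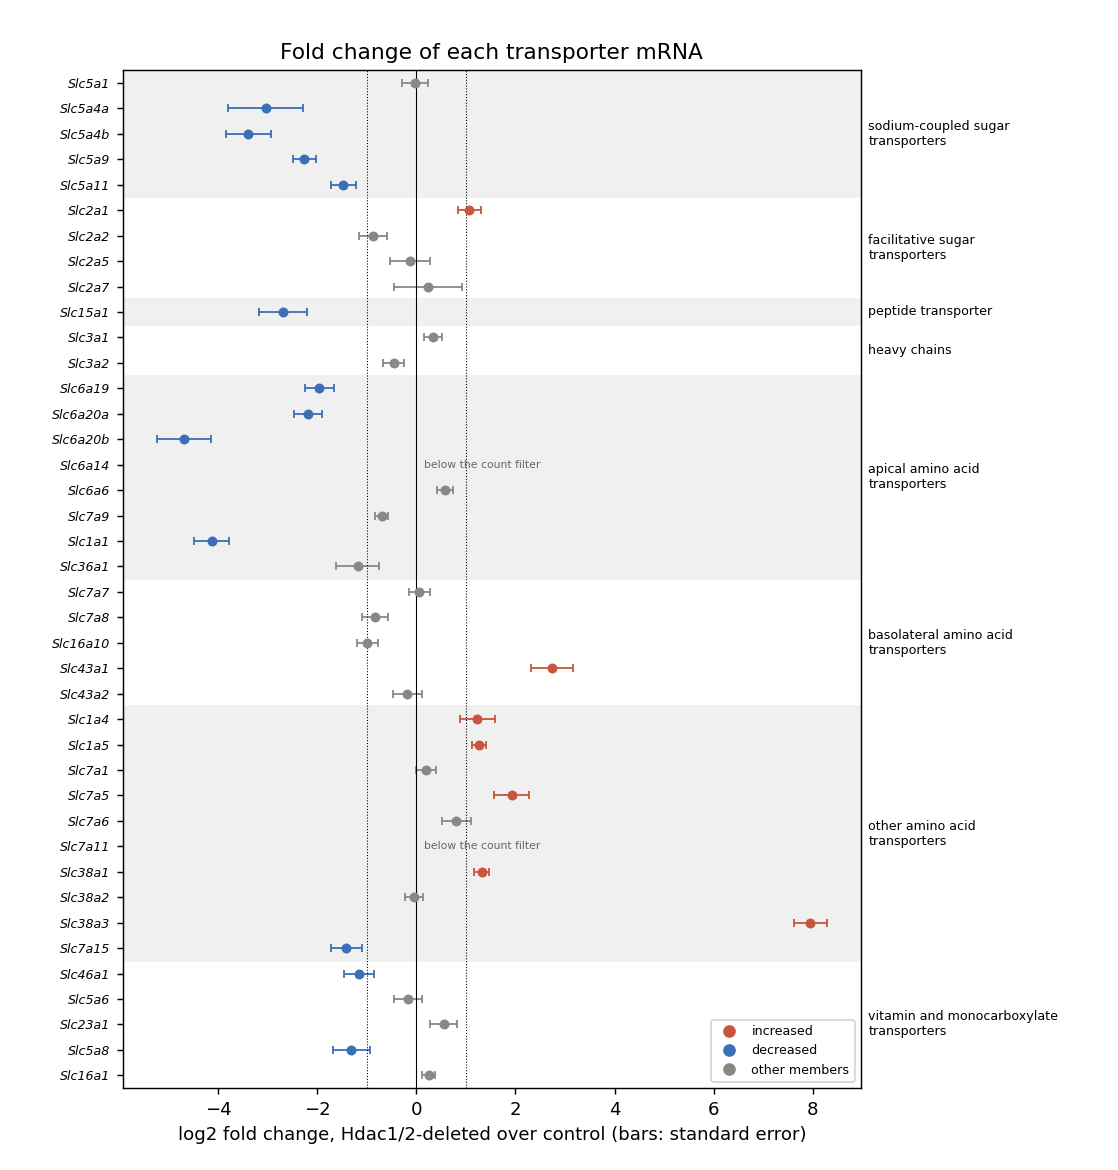
Log2 fold change of each tested transporter (Hdac1/2-deleted over control, bars show the standard error), with dotted lines at 2-fold. Red points were increased, blue points decreased, and grey points did not meet both limits. Slc5a1 sits at -0.02 while the other 4 sodium-coupled sugar transporters lie between -3.39 and -1.47.

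Among the sodium-coupled sugar transporters, 4 of 5 were decreased and the most abundant one was not. Slc5a1 encodes SGLT1, which brings glucose and galactose into the enterocyte. It was at 3215, 2733 and 5112 CPM in C1, C3 and C3-3, and at 3713, 2988 and 4218 CPM in H1, H5 and H9. All 3 Hdac1/2-deleted mice fell inside the control range, and the log2 fold change was -0.02 ± 0.26 (edgeR BH-adjusted p = 0.96). Its sign depended on the mice and the scaling, with values from -0.19 to 0.30 when each mouse was left out.

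Slc5a4a and Slc5a4b encode SGLT3a and SGLT3b, SGLT relatives with a proposed role in glucose sensing. Slc5a4b was at 177, 276 and 414 CPM in C1, C3 and C3-3, and at 19.1, 20.4 and 43.2 CPM in H1, H5 and H9. The highest Hdac1/2-deleted mouse was thus well below the lowest control mouse, and the decrease was 10.5-fold (log2 fold change -3.39 ± 0.45, edgeR BH-adjusted p = 0.0012). Slc5a4a was at 45.2, 36.4 and 160 CPM in the control mice and at 10.5, 4.61 and 14.1 CPM in the Hdac1/2-deleted mice. The groups were again apart, but C3-3 held most of the control signal. The log2 fold change of Slc5a4a was -3.04 ± 0.76 (edgeR BH-adjusted p = 0.024) and shrank to -2.05 without C3-3. Its edgeR BH-adjusted p rose to 0.08 without H1, 0.053 without H5 and 0.057 without H9. The genes lie 36.5 kb apart on chromosome 10 of GRCm38, and their exons share no 100-base stretch.

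Slc5a9 encodes SGLT4, a carrier of mannose and related sugars, and Slc5a11 encodes SMIT2, a sodium/myo-inositol cotransporter. Slc5a9 was at 50.5, 70.6 and 57.5 CPM in the control mice and at 8.63, 14.6 and 14.2 CPM in the Hdac1/2-deleted mice. Slc5a11 was at 192, 319 and 289 CPM in the control mice and at 67.3, 101 and 120 CPM in the Hdac1/2-deleted mice. Both genes were lower in each mutant mouse than in any control mouse. The log2 fold changes were -2.26 ± 0.23 for Slc5a9 (edgeR BH-adjusted p = 1.2e-04) and -1.47 ± 0.26 for Slc5a11 (edgeR BH-adjusted p = 0.0022). Summed without Slc5a1, the sodium-coupled sugar transporters went from 696 ± 228 to 146 ± 43.1 CPM, or 21% of the control level. With Slc5a1 included the sum was 86.4% of control, because that gene alone made up most of it.

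The facilitative sugar transporters moved less. Slc2a5 encodes GLUT5, the apical fructose carrier, and was at 173, 337 and 591 CPM in C1, C3 and C3-3, and at 400, 319 and 285 CPM in H1, H5 and H9. The control mice spread over more than the whole mutant range, and no difference could be shown (log2 fold change -0.13 ± 0.41, edgeR BH-adjusted p = 0.82). Slc2a7 encodes GLUT7, another apical member of the family, whose gene lies 4.8 kb from Slc2a5 on chromosome 4. It ranged from 16.8 CPM in C1 to 108 CPM in C3-3, and from 47.5 to 84.7 CPM in Hdac1/2-deleted mice. Its log2 fold change of 0.24 ± 0.68 (edgeR BH-adjusted p = 0.81) became 1.24 without C3-3 (edgeR BH-adjusted p = 0.045), so that 1 control mouse decided the value.

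Slc2a2 encodes GLUT2, through which hexoses leave on the basolateral side. It was at 316, 320 and 583 CPM in the control mice and at 256, 165 and 244 CPM in the Hdac1/2-deleted mice. The groups did not overlap, and the difference passed the test but not the 2-fold limit (log2 fold change -0.87 ± 0.28, edgeR BH-adjusted p = 0.033). It was -1.02 without C1 and also without C3, which met both limits, but its edgeR BH-adjusted p was 0.11 without C3-3 (log2 fold change -0.51) or H5, 0.057 without H1 and 0.066 without H9. With library totals only it was 0.078. Slc2a1 encodes GLUT1, the glucose carrier of most cells. It was at 8.29, 10.4 and 10.7 CPM in the control mice and at 20.8, 26.1 and 14.9 CPM in the Hdac1/2-deleted mice. Every mutant mouse was above every control mouse. The log2 fold change of Slc2a1 was 1.07 ± 0.23 (edgeR BH-adjusted p = 0.0053), just above 2-fold, and fell to 0.98 without C1 and 0.88 without H5.

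Slc15a1 encodes PEPT1, the proton-coupled carrier of di- and tripeptides. It was at 722, 348 and 1155 CPM in C1, C3 and C3-3, and at 94, 83.2 and 167 CPM in H1, H5 and H9. The control mice differed widely among themselves, yet the lowest of them, C3, was above the highest mutant mouse. The log2 fold change was -2.69 ± 0.49, or 6.47-fold (edgeR BH-adjusted p = 0.0045), and ranged from -3.06 to -2.22 when each mouse was left out. The ratio of Slc15a1 to Slc5a1 in the same library, both per kilobase of exon, was 0.189, 0.107 and 0.190 in control mice and 0.0213, 0.0234 and 0.0332 in Hdac1/2-deleted mice. The ratio was thus lower in every mutant mouse than in any control mouse, with an exact two-sided permutation p of 0.10, the smallest this design allows.

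The heavy chains were not changed by the rule used here. Slc3a1 encodes rBAT, the partner of Slc7a9 in the brush border, and was at 471, 427 and 457 CPM in the control mice and at 463, 562 and 689 CPM in the Hdac1/2-deleted mice. The groups overlapped through H1 (log2 fold change 0.34 ± 0.18, edgeR BH-adjusted p = 0.15). Slc3a2 encodes 4F2hc, the partner of the basolateral light chains, and was at 633, 595 and 778 CPM in the control mice and at 338, 541 and 580 CPM in the Hdac1/2-deleted mice. Its ranges were apart, but the difference did not pass the test (log2 fold change -0.46 ± 0.22, edgeR BH-adjusted p = 0.13). Of the length of the Slc3a1 exons, 26.5% lies opposite exons of Prepl, and since the strand setting of the counting is not given in the sources used here, reads of the 2 genes may be mixed.

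Of the 8 apical amino acid transporters, 7 were tested and 4 were decreased. Slc6a19 encodes B0AT1, the main sodium-coupled carrier of neutral amino acids. It was at 899, 824 and 1298 CPM in C1, C3 and C3-3, and at 268, 167 and 342 CPM in H1, H5 and H9. No mutant mouse came near the control range, and the log2 fold change was -1.96 ± 0.29 (edgeR BH-adjusted p = 9.2e-04). Slc1a1 encodes EAAT3, which takes up glutamate and aspartate, and was at 30.3, 17.2 and 31.2 CPM in the control mice and at 1.51, 2.08 and 0.959 CPM in the Hdac1/2-deleted mice. This was a 17.5-fold decrease (log2 fold change -4.13 ± 0.35, edgeR BH-adjusted p = 5.8e-05). Exons of 4430402I18Rik lie opposite 31.9% of the Slc1a1 exons and that gene was at 1.12 CPM in control and 1.77 CPM in Hdac1/2-deleted IEC.

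Slc6a20a encodes SIT1, the carrier of proline and other imino acids, and Slc6a20b is its neighbouring paralog. Slc6a20a was at 343, 536 and 576 CPM in the control mice and at 112, 72.8 and 134 CPM in the Hdac1/2-deleted mice. Slc6a20b was at 7.70, 7.26 and 15.6 CPM in the control mice and at 0.270, 0.184 and 0.699 CPM in the Hdac1/2-deleted mice, where its raw counts were 20, 7 and 43. Both were lower in all 3 mutant mice. The log2 fold changes were -2.19 ± 0.28 for Slc6a20a (edgeR BH-adjusted p = 4.2e-04) and -4.69 ± 0.55 for Slc6a20b (edgeR BH-adjusted p = 3.3e-04), the latter reaching -5.42 without H9. The genes lie 2.21 kb apart on chromosome 9, and 400 of the 100-base stretches of their exons are identical, which makes up 9.58% of those of Slc6a20a and 4.49% of those of Slc6a20b. Their counts are uncertain to that extent. So is Slc6a20b where 21.1% of its exons lies opposite Sacm1l, a gene at 88.6 CPM in control and 66.7 CPM in Hdac1/2-deleted IEC. In Hdac1/2-deleted mice, reads of other genes counted on Slc6a20b cannot exceed its whole level there, at most 0.699 CPM. Slc6a20a has 14.9% of its exons opposite those of other genes, Ccr9 among them (4.15 CPM in control IEC).

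The other apical carriers changed less or could not be measured. Slc7a9 encodes b0,+AT, the exchanger of cystine and cationic amino acids that pairs with Slc3a1, and was at 193, 229 and 203 CPM in the control mice and at 121, 133 and 130 CPM in the Hdac1/2-deleted mice. These were among the least variable values of all, and the groups were apart at less than 2-fold (log2 fold change -0.70 ± 0.13, edgeR BH-adjusted p = 0.003). The ratio of Slc7a9 to Slc3a1 per kilobase went from 0.393 ± 0.0550 to 0.194 ± 0.0317, so that the light chain fell relative to its heavy chain (exact two-sided permutation p = 0.10). Slc7a8 also fell relative to Slc3a2, from 0.806 ± 0.106 to 0.630 ± 0.00539. Slc7a7 went the other way, from 0.518 ± 0.0631 to 0.776 ± 0.160 of Slc3a2. Every ratio computed for this report reached the same exact two-sided permutation p, which therefore does not tell the ratios apart. Slc6a6, the taurine carrier, was higher in Hdac1/2-deleted mice at 332 to 451 CPM against 226 to 294 CPM (log2 fold change 0.58 ± 0.17, edgeR BH-adjusted p = 0.024), but not past the limit without C3 (0.067), H1 (0.061) or H9 (0.087). Slc36a1 encodes the proton-coupled carrier PAT1, and its ranges of 62.9 to 182 CPM in control and 39.4 to 76.8 CPM in Hdac1/2-deleted mice overlapped. The log2 fold change of Slc36a1 was -1.18 ± 0.43 (edgeR BH-adjusted p = 0.068), and it met both limits without C1 (-1.48) and without H5 (-1.56), with DESeq2 (adjusted p = 0.0086), with limma-voom (0.045) and in the fit that was not robust (0.041). Without C3-3 it was -0.73 (edgeR BH-adjusted p = 0.17). Slc6a14 encodes the broad carrier ATB0,+ and was at most 0.395 CPM in any mouse, with 0 to 15 counts, too few to be tested. The summed level of the apical amino acid carriers was 2121 ± 419 CPM in control and 946 ± 158 CPM in Hdac1/2-deleted IEC, or 44.6% of control, with no overlap between the groups.

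**Figure D3:**
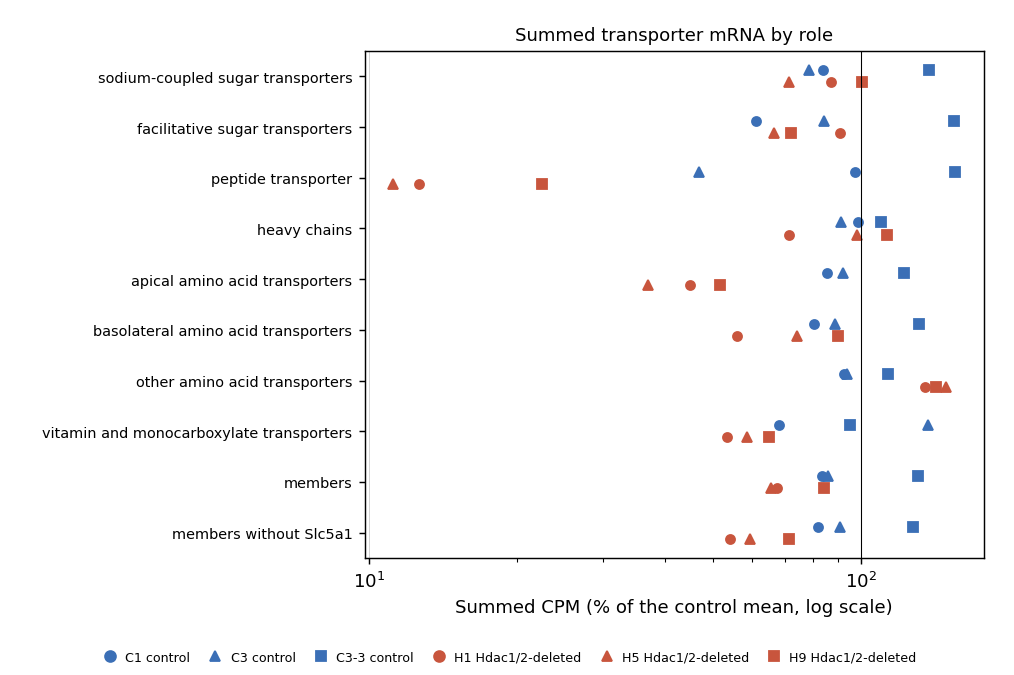
Summed CPM of the transporters of each role in each mouse, as a percentage of the control mean (log axis). The apical amino acid group and the peptide transporter lie at 44.6% and 15.5% of control on average, the remaining amino acid carriers at 142.0%, and the heavy chains at 94.4%.

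On the basolateral side, 0 of 5 amino acid transporters were decreased at 2-fold by edgeR, while 2 of 5 were lower by adjusted p alone. Slc43a2, which encodes the neutral amino acid carrier LAT4, was at 595, 987 and 1302 CPM in C1, C3 and C3-3, and at 623, 847 and 1068 CPM in H1, H5 and H9. The mutant range lay inside the control range (log2 fold change -0.18 ± 0.30, edgeR BH-adjusted p = 0.66). Slc7a7, which encodes y+LAT1 for the exit of cationic amino acids, was at 280, 275 and 431 CPM in the control mice and at 301, 323 and 405 CPM in the Hdac1/2-deleted mice. It likewise overlapped (log2 fold change 0.06 ± 0.21, edgeR BH-adjusted p = 0.84). Slc7a8 encodes the neutral exchanger LAT2 and was at 690, 611 and 1021 CPM in the control mice and at 300, 481 and 524 CPM in the Hdac1/2-deleted mice. It was lower in every mutant mouse than in any control mouse (log2 fold change -0.83 ± 0.26, edgeR BH-adjusted p = 0.032). Its edgeR BH-adjusted p was 0.12 without C3-3, 0.088 without H1 and 0.068 without H5. Slc16a10 encodes TAT1, which releases aromatic amino acids, and went from 368 to 563 CPM in control to 194 to 281 CPM in Hdac1/2-deleted mice. Its log2 fold change of -0.99 ± 0.21 (edgeR BH-adjusted p = 0.0047) lay at the 2-fold limit, which it passed without C3 (-1.13), without H9 (-1.14) and with upper-quartile factors (-1.05).

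Slc43a1 encodes LAT3 and was the only basolateral carrier that was increased (edgeR). It was at 0.196, 0.216 and 0.113 CPM in the control mice and at 1.28, 1.37 and 0.910 CPM in the Hdac1/2-deleted mice. The control counts were 13, 12 and 6, and the gene passed the filter on low counts through the mutant mice, so that a change in this direction was the only one it could have shown. The log2 fold change was 2.74 ± 0.42 (edgeR BH-adjusted p = 0.001). Even in mutant mice its level per kilobase, 0.208 ± 0.0426 CPM, was far below that of Slc43a2, 84.3 ± 22.2 CPM.

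The last group of amino acid transporters holds carriers of most cells together with Slc38a3 and Slc7a15, and 5 of 9 tested were increased. The widest change of all the transporters was that of Slc38a3, which encodes SNAT3, a sodium-coupled glutamine carrier best known from liver, kidney and brain. It was at 0.196, 0.378 and 0.470 CPM in C1, C3 and C3-3, from 13, 21 and 25 counts, and at 72.6, 74.1 and 110 CPM in H1, H5 and H9, from 5375, 2816 and 6738 counts. It was thus near the floor in each control mouse, where 3 counts correspond to 0.0453 to 0.0565 CPM, and far above it in each mutant mouse. This was a log2 fold change of 7.95 ± 0.34, or 248-fold (edgeR BH-adjusted p = 2.8e-06), and stayed between 7.65 and 8.24 when each mouse was left out. It was the 47th largest increase among the 15618 genes tested.

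Slc38a1 encodes SNAT1, a carrier of glutamine and other small neutral amino acids, and was at 26.8, 35.6 and 28.0 CPM in the control mice and at 76.7, 79.6 and 68.7 CPM in the Hdac1/2-deleted mice. Slc1a5 encodes ASCT2, the exchanger that takes up glutamine in dividing cells, and was at 29.5, 23.7 and 27.0 CPM in the control mice and at 65.3, 67.9 and 59.4 CPM in the Hdac1/2-deleted mice. Both genes varied little within groups and were more than 1.5 times higher in every mutant mouse. The log2 fold changes were 1.32 ± 0.15 for Slc38a1 (edgeR BH-adjusted p = 2.4e-04) and 1.26 ± 0.14 for Slc1a5 (edgeR BH-adjusted p = 1.9e-04). Slc38a2, the closely related SNAT2, was at 50.1 to 73.3 CPM in control and 49.7 to 63.8 CPM in Hdac1/2-deleted mice, with overlapping ranges (log2 fold change -0.04 ± 0.18, edgeR BH-adjusted p = 0.87). Of the 3 Slc38 genes of this list, which all carry glutamine, 2 were thus increased and 1 was not.

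Slc7a5 encodes LAT1, which exchanges large neutral amino acids and is paired with Slc3a2. It was at 5.03, 2.90 and 5.72 CPM in the control mice and at 14.6, 25.8 and 11.5 CPM in the Hdac1/2-deleted mice. H5 was the highest, and all mutant mice lay above the controls (log2 fold change 1.92 ± 0.36, edgeR BH-adjusted p = 0.0031). Per kilobase, the ratio of Slc7a5 to the epithelial exchanger Slc7a8 was 0.00794 ± 0.00174 in control and 0.0559 ± 0.0230 in Hdac1/2-deleted IEC (exact two-sided permutation p = 0.10). LAT1 mRNA was thus a small fraction of LAT2 mRNA in both groups. Slc1a4 encodes the neutral exchanger ASCT1 and was at 3.10, 2.54 and 2.79 CPM in the control mice and at 6.43, 9.74 and 3.69 CPM in the Hdac1/2-deleted mice. The ranges were apart, with H9 close to the controls, and the log2 fold change was 1.23 ± 0.35 (edgeR BH-adjusted p = 0.02). It fell to 0.86 without H5 (edgeR BH-adjusted p = 0.074), and its adjusted p was 0.056 without C3 and 0.055 without C3-3 in edgeR.

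Slc7a15 was the only decreased gene of this group, and among its carriers it was the most abundant per kilobase in control IEC. It was at 98.1, 85.6 and 166 CPM in the control mice and at 38.6, 33.0 and 59.6 CPM in the Hdac1/2-deleted mice. All mutant mice were lower than all control mice (log2 fold change -1.41 ± 0.31, edgeR BH-adjusted p = 0.0076). Slc7a1, the cationic carrier CAT1, was at 35.1 to 38.7 CPM in control and 31.3 to 55.4 CPM in Hdac1/2-deleted mice (log2 fold change 0.20 ± 0.20, edgeR BH-adjusted p = 0.45). Slc7a6, which encodes y+LAT2, was at 2.31 to 3.17 CPM and 3.28 to 6.16 CPM, apart but short of the limit (log2 fold change 0.81 ± 0.30, edgeR BH-adjusted p = 0.058). It met both limits without H9 (1.04) and with library totals only (edgeR BH-adjusted p = 0.035). Slc7a11 encodes the cystine/glutamate exchanger xCT and had 3 to 18 counts, or at most 0.243 CPM, in any mouse, and was not tested.

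Among the carriers of vitamins and monocarboxylates, 2 of 5 were decreased, and both depended on single mice. Slc46a1 encodes PCFT, the proton-coupled folate carrier of the proximal intestine, and was at 324, 794 and 479 CPM in C1, C3 and C3-3, and at 203, 248 and 268 CPM in H1, H5 and H9. The mutant mice were uniform and the control mice were not (log2 fold change -1.15 ± 0.30, edgeR BH-adjusted p = 0.016). The value was -0.74 without C3, the edgeR BH-adjusted p was 0.066 without H1 and 0.057 without H5, and scaling by library totals only gave -0.95. Slc5a8 encodes SMCT1, which carries lactate and short-chain fatty acids with sodium, and was at 15.7, 11.8 and 24.0 CPM in the control mice and at 5.29, 10.7 and 4.83 CPM in the Hdac1/2-deleted mice. H5 came close to C3 (log2 fold change -1.31 ± 0.37, edgeR BH-adjusted p = 0.021). The edgeR BH-adjusted p of Slc5a8 was 0.074 without C3-3, where the log2 fold change was -0.98, 0.081 without H1 and 0.069 without H9. Slc16a1 (MCT1), Slc23a1 (the ascorbate carrier SVCT1) and Slc5a6 (the biotin and pantothenate carrier SMVT) had log2 fold changes of 0.25 ± 0.13, 0.55 ± 0.28 and -0.17 ± 0.28, with overlapping ranges, and none passed the test (edgeR BH-adjusted p = 0.17, 0.15 and 0.65).

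Levels were compared between genes per kilobase of exon. In control IEC the highest was Slc5a1 (898 ± 307 CPM per kb), followed by Slc6a19 (201 ± 50.9), Slc3a1 (199 ± 9.84), Slc3a2 (189 ± 27.3), Slc46a1 (173 ± 77.8), Slc7a8 (155 ± 43.4) and Slc15a1 (152 ± 82.6). From Slc6a19 to Slc15a1, neighbours in this order did not differ beyond their spread. In Hdac1/2-deleted IEC Slc5a1 remained first (887 ± 151 CPM per kb), followed by Slc3a1 (252 ± 49.9), Slc3a2 (138 ± 36.9), Slc7a7 (103 ± 16.6) and Slc2a5 (98.4 ± 17.3). In this order of 40 transporters by level per kilobase, Slc6a19 went from place 2 to place 9, Slc15a1 from 7 to 17 and Slc38a3 from 37 to 19. The share of Slc5a1 in the summed CPM of all transporters was 25.1% to 30.8% in controls, and 35.8% to 43.2% after deletion of Hdac1/2. Without it, the sum went from 9000 ± 2182 to 5560 ± 805 CPM, 61.8% of control. Of the 19 tested transporters with at least 100 CPM in control IEC, 7 were decreased and 0 increased by edgeR. Of the 1879 genes at that level, 15.1% were decreased and 2.71% increased.

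**Figure D4:**
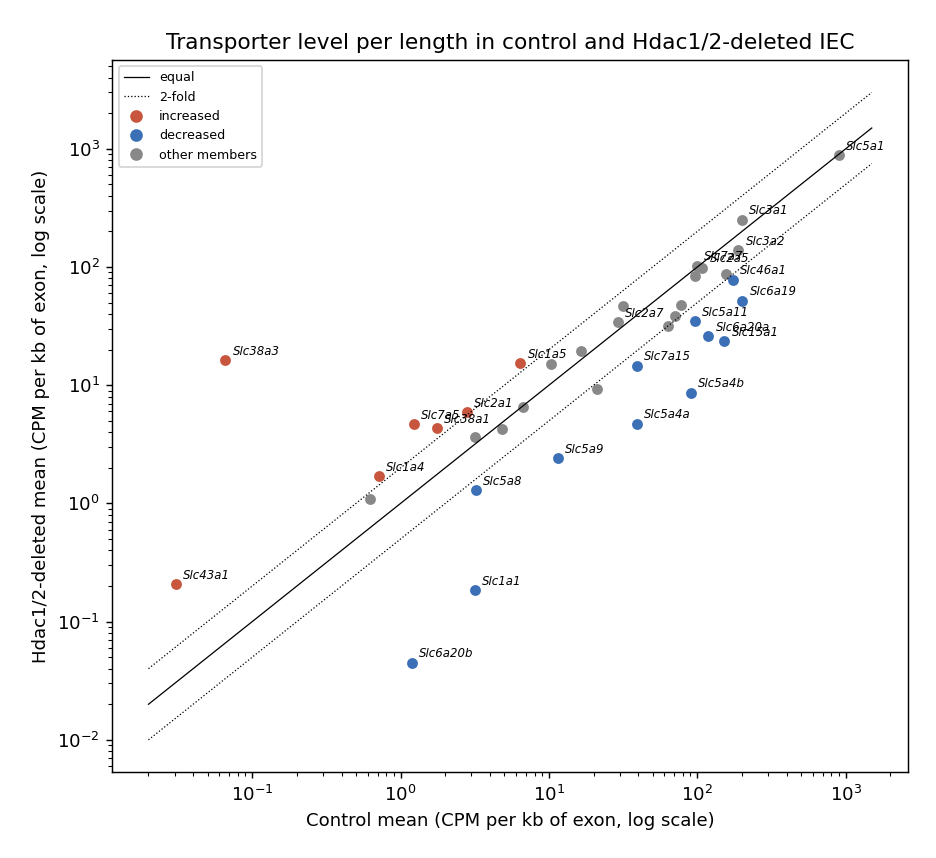
Mean level of each tested transporter per kilobase of exon in control (x axis) and Hdac1/2-deleted IEC (y axis), both on log scales, with the line of equality and 2-fold lines. The increased genes (red) all lie below 10 CPM per kb in control IEC, while the decreased genes (blue) spread from 1.19 to 201 CPM per kb.

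C3-3 had the highest control value for 25 of the 38 tested transporters, and for 27.8% of all genes tested. C3 had the lowest for 19 (35% of all genes). Among Hdac1/2-deleted mice, H9 was highest for 20 (31% of all genes) and H5 for 14 (33.8%), while H1, H5 and H9 were lowest for 14, 12 and 12 transporters. In control mice the coefficient of variation had a median of 29% and ran from 4.98% (Slc3a1) to 88.3% (Slc2a7). In Hdac1/2-deleted mice the median was 26.7%, with extremes of 4.88% (Slc7a9) and 71.8% (Slc6a20b).

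The proteins that assist these transporters or supply their driving force were followed as a separate list of 13 genes, of which 12 were present and tested. The edgeR test found 1 increase and 2 decreases among them, beside 12.4% and 12.7% of all genes tested. The median of their log2 fold changes was -0.02, beside -0.01 for all genes. Tmem27 encodes collectrin, which Slc6a19 needs at the apical membrane in kidney, and was at 0.408, 0.288 and 0.339 CPM in the control mice and at 1.81, 2.50 and 4.03 CPM in the Hdac1/2-deleted mice. It was higher in all mutant mice (log2 fold change 3.00 ± 0.40, edgeR BH-adjusted p = 5.2e-04). Pdzk1, a scaffold that binds brush border transporters, was decreased (log2 fold change -1.10 ± 0.21, edgeR BH-adjusted p = 0.0027), but not at 2-fold without H1 (-0.97) or with library totals only (-0.92). Atp1b1, which encodes the beta subunit of the sodium pump, had a log2 fold change of 0.05 ± 0.20 (edgeR BH-adjusted p = 0.86). The sodium/proton exchanger Slc9a3, which sustains proton-coupled uptake, varied widely (156 ± 89.2 against 251 ± 165 CPM, edgeR BH-adjusted p = 0.4).

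Of 16 genes for sugar sensing and hexose handling, 14 were tested. Of these, 2 rose and 1 fell past both limits, beside 12.4% and 12.7% of all genes tested, and the median of the log2 fold changes was -0.11. Hexokinase 2 (Hk2) was at 10.3, 9.78 and 12 CPM in the control mice and at 23.5, 47.0 and 16.2 CPM in the Hdac1/2-deleted mice. Its log2 fold change of 1.43 ± 0.36 (edgeR BH-adjusted p = 0.015) dropped to 0.90 without H5, and its edgeR BH-adjusted p was 0.055 without C1 and without C3. Trpm5, a channel of taste and tuft cells, rose (log2 fold change 1.38 ± 0.32, edgeR BH-adjusted p = 0.0088), whereas the other 3 tested tuft cell markers fell (Dclk1 -4.40, Avil -2.70 and Pou2f3 -1.55). The sweet taste receptor subunit Tas1r3 fell from 1.15 ± 0.223 to 0.276 ± 0.187 CPM (edgeR BH-adjusted p = 0.012). Its log2 fold change of -2.02 reached -2.77 without H1. Mlxipl, the sugar-responsive transcription factor ChREBP, and the fructose enzyme Khk had log2 fold changes of 0.44 and -0.15, neither past the limit (edgeR BH-adjusted p = 0.076 and 0.54).

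The increased carriers Slc7a5, Slc1a4 and Slc1a5 are among the known targets of the transcription factor ATF4, which is active when amino acids are short. They are named here because they were increased, and ATF4 targets were not counted among the other transporters. Of those others, Slc38a1, Slc38a3, Slc43a1 and Slc2a1 were increased. Slc3a2 (log2 fold change -0.46), Slc38a2 (-0.04) and Slc7a1 (0.20) were not, and Slc7a11 was too low to be tested. A part of ATF4 in these values was not tested. In a list of 17 other genes of the amino acid shortage response, 2 rose and 1 fell past both limits (edgeR). The shares over all genes tested were 12.4% and 12.7%, and the median of the log2 fold changes of the list was -0.04. Atf4 itself was at 154, 155 and 144 CPM in the control mice and at 138, 87.9 and 107 CPM in the Hdac1/2-deleted mice, lower but not past the limit (edgeR BH-adjusted p = 0.072). Asparagine synthetase (Asns) had a log2 fold change of -0.78 ± 0.39 (edgeR BH-adjusted p = 0.15), and Trib3, Ddit3 and Chac1 had values of 0.13, 0.01 and -0.20 with overlapping ranges. The increased genes were Shmt2 of serine and glycine metabolism (1.27 ± 0.22, below the 2-fold limit without H5) and Phgdh of serine synthesis (1.02 ± 0.33, overlapping groups). Phgdh no longer met the rule without C3 (0.95), C3-3 (0.91) or H5 (0.64), where the values are log2 fold changes, nor with upper-quartile factors (0.96) or limma-voom (0.89). Its edgeR BH-adjusted p was 0.075 without H1. The decreased gene was the stress protein Nupr1 (-4.68 ± 0.59, and -5.42 without H5).

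Of 15 transcription factors of the intestinal epithelium, 3 were decreased and 0 increased (edgeR), with a median log2 fold change of -0.38. Over all genes tested the shares were 12.7% and 12.4%. By adjusted p alone 6 were lower and 0 higher, where the shares over all genes were 20.3% and 20.5%. Creb3l3 went from 817 ± 118 to 361 ± 61.8 CPM (edgeR BH-adjusted p = 0.0012) and Prdm1 from 8.64 ± 2.49 to 2.35 ± 0.283 CPM (edgeR BH-adjusted p = 8.9e-04). Creb3l3 reached -1.18 on the log2 scale, and -0.99 with library totals only. Hnf4a, Cdx2 and Gata4 are known to act on the genes of many brush border transporters. Their log2 fold changes were -0.30 ± 0.14, 0.41 ± 0.17 and -0.08 ± 0.14, none past the limit (edgeR BH-adjusted p = 0.13, 0.081 and 0.69). Hnf4g (-0.88 ± 0.25), Gata6 (-0.58 ± 0.14) and Maf (-0.59 ± 0.17) were lower, but not at 2-fold (edgeR BH-adjusted p = 0.023, 0.0083 and 0.021). With a mouse left out, the edgeR BH-adjusted p reached 0.086 for Hnf4g and 0.091 for Maf.

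The rest of the solute carrier superfamily gives a scale for these counts. Of 239 other Slc genes tested, 31 (13.0%) rose and 43 (18.0%) fell past both limits, and the median of their log2 fold changes was -0.11, with a median size of 0.68. Of 52 other carriers known from enterocytes, 50 were present and 47 tested, and 2 were increased and 15 decreased. The decreased ones included Slc5a12, a sodium-coupled lactate carrier related to Slc5a8, at 235, 95 and 285 CPM in the control mice and 6.10, 4.37 and 4.93 CPM in the Hdac1/2-deleted mice (log2 fold change -5.32 ± 0.45, edgeR BH-adjusted p = 1.6e-04). The increased ones were the thiamine carrier Slc19a3 (13.3-fold) and the myo-inositol carrier Slc5a3 (3.47-fold). Slc5a3 thus rose while the related apical carrier Slc5a11 fell. Within families, 6 of 9 tested Slc5 genes were decreased and 1 increased, 5 of 12 Slc6 genes were decreased and 2 increased, and 3 of 10 Slc38 genes were increased and 0 decreased by edgeR. Slc1 genes went both ways (2 increased and 3 decreased of 5), as did Slc7 (1 and 1 of 10) and Slc2 (1 and 1 of 11) genes. Over all genes the shares were 12.4% and 12.7%, and the differences between families were not tested.

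The chromosomal surroundings were examined for 8 of the transporters. The scale for all counts of neighbours is the share over all genes tested, 12.4% increased and 12.7% decreased. Slc38a3 lies on chromosome 9, from 107650634 to 107669530 of GRCm38. Within 100 kb it has 16 tested neighbours, of which 3 were increased and 3 decreased. Of the decreased ones, only Hyal1 (-2.04) was so without C3, since the edgeR BH-adjusted p was then 0.056 for Gm9917 and 0.089 for Lsmem2. The edgeR BH-adjusted p of Gm9917 was also above 0.05 without H1 (0.1), C1 (0.059) or C3-3 (0.083), and that of Lsmem2 without H5 (0.071) or H9 (0.085). The increased ones all lie within 15.3 kb, namely Gnat1 at 4.94 kb (log2 fold change 1.98 ± 0.69), Sema3f at 12 kb (3.76 ± 0.37) and Gnai2 at 15.3 kb (just past 2-fold, with a standard error of 0.21), each past the limit (edgeR BH-adjusted p = 0.045, 9.8e-05 and 0.0047). Only Sema3f was increased in every refit in which it was tested. Gnai2 was 0.85 without C1, 0.95 without H5 and 0.93 without H9, and the edgeR BH-adjusted p of Gnat1 was above the limit without any mouse but C3 (0.055 to 0.21). All 3 changed less than Slc38a3, and a link with distance was not tested. Slc15a1 had 2 tested neighbours and Slc1a1 had 5, and none of them was increased or decreased by edgeR. Of 5 tested neighbours of Slc43a1, Rtn4rl2 at 8.33 kb was increased (log2 fold change 3.89, and 3.28 to 4.78 with a mouse left out) and Ube2l6 (-1.72) and Serping1 (-1.55) were decreased. Serping1 did not pass without C1 (edgeR BH-adjusted p = 0.052), H1 or H9 (0.055 each). Of 4 near Slc2a5, Gpr157 was decreased (-1.35), but not without C3 (edgeR BH-adjusted p = 0.056) or C3-3 (0.063). Near Slc5a4b and Slc6a20b the only such genes were their paralogs. Beside Slc6a19 on chromosome 13, its paralog Slc6a18 at 1.72 kb was decreased too (log2 fold change -2.07 ± 0.45, edgeR BH-adjusted p = 0.0056), at a control level of only 0.613 CPM.

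Promoter sequences are shown for 2 amino acid exchangers that share a motif, of which 1 was increased and 1 was too low to be tested. RefSeq windows of GRCm38.p6, from 250 bases before to 50 bases after the start of transcription, were found for 33 of the 40 genes. No window was found for Slc1a5, Slc5a9, Slc6a6, Slc7a5, Slc23a1, Slc38a1 and Slc38a3. Each window was searched on both strands for motifs, among them TGATGNAA (the ATF4 and C/EBP composite element), TTTATNG (CDX), CAAAGTCCA (HNF4), TGACNNNGC (the core of the antioxidant response element) and TATAAA (the TATA box). The printed stretch runs 5′ to 3′ from 110 bases before the start to the first 10 transcribed bases, with motif matches in capitals. Slc1a4, which was increased, comes from chr11:20332704-20332823, and Slc7a11, near the floor in all mice, from chr3:50443604-50443723, both on the minus strand.
Slc1a4: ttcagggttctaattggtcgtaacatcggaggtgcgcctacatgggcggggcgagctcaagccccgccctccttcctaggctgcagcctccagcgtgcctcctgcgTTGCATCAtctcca
Slc7a11: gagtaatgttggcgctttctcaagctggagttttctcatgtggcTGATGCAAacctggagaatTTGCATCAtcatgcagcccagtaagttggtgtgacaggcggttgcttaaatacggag

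The ATF4 element was present in windows of 3 of 33 transporters, Slc1a4, Slc7a7 and Slc7a11 (9.09%), and of 4.51% of all 27025 genes with a window. Of these Slc1a4 was increased, with the match across its start, Slc7a7 had a log2 fold change of 0.06, and Slc7a11, with matches at 66 to 59 and 47 to 40 bases before the start, had at most 18 counts. The shares of transporters and of all genes were 12.1% and 12.5% for the CDX motif, 3.03% and 0.555% for the HNF4 motif (Slc3a1 alone), 18.2% and 14% for the antioxidant response element, and 18.2% and 15.7% for the TATA box. Aligned end to end, the 300-base windows were 47.8% identical for the decreased paralogs Slc6a20a and Slc6a20b, 55.9% for Slc5a4a and Slc5a4b, which were also decreased, and 51.2% for Slc2a5 and Slc2a7. The unrelated pair Slc6a20a and Slc5a4a had 48.7%. A motif match describes the letters of the window and is neither a binding site nor a cause.

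Markers of position along the villus and of other cells moved in the same samples. The sum of 10 villus tip markers, led by Enpp3, was 2516, 3519 and 3046 CPM in the control mice and 1486, 1330 and 1685 CPM in the Hdac1/2-deleted mice, with 4 of 10 decreased. Of these, Ada did not pass without H5 (edgeR BH-adjusted p = 0.07) or H9 (0.077), and Enpp3 fell below 2-fold without H1 (-0.95) and with library totals only (-0.94), as Creb3l3 did with library totals. The sum of 7 villus base markers, led by Reg3b in Hdac1/2-deleted IEC, was 6368, 9320 and 6526 CPM in the control mice. It was 23172, 26086 and 16951 CPM in the Hdac1/2-deleted mice, with 2 increased (Reg3b and Reg3g) and 2 decreased (Reg1 and Nlrp6). Nlrp6 was -0.94 with library totals only. The rise of the sum lay mostly in Reg3b (1579 ± 786 to 9543 ± 3198 CPM) and Reg3g (1118 ± 422 to 7486 ± 1897 CPM). Without Reg3b, the sum went from 5830 ± 913 to 12500 ± 2030 CPM. The sum of 11 crypt and proliferation markers overlapped, at 530 to 764 CPM against 313 to 561 CPM, or 339 ± 95.2 against 374 ± 101 CPM without Olfm4. Of these, Olfm4 (-1.58) and Lgr5 (-1.54) were decreased and Mcm2 (1.02) was increased, but Mcm2 fell below 2-fold without C3 (0.84), C3-3 (0.97), H1 or H5 (0.89), and with upper-quartile factors (0.96). All 7 Paneth cell markers were decreased (edgeR), from a sum of 4069 ± 1087 to 246 ± 55.8 CPM, but Mmp7 no longer met the rule without C1 (-0.85), H5 (edgeR BH-adjusted p = 0.083) or H9 (-0.90), or with library totals only (-0.97). Of 7 goblet cell markers 3 were decreased (Tff3, Zg16 and Spink4, the last not without C1, -0.87, or with library totals only, -0.88), and their sum, led by Fcgbp, went from 19790 ± 1313 to 9904 ± 3568 CPM. Of 8 enteroendocrine markers 2 were increased (Sct and Tac1) and 2 decreased (Gip and Gcg). Their sum went from 669 ± 37.4 to 1321 ± 218 CPM, and without Sct from 627 ± 28.6 to 603 ± 93.8 CPM.

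Markers of position along the gut moved too. Of 6 for the proximal small intestine 2 were decreased (Lct and Cyp2b10) and 1 was increased (Cybrd1, 3.12, and 4.15 without C3), and the sum, led by Lct, went from 11456 ± 2411 to 4814 ± 661 CPM. The stomach markers went from 2.01 ± 0.588 to 28.3 ± 21.2 CPM through Anxa10 (log2 fold change 8.98, and 8.11 without H1, 8.33 without C1 and 9.96 without C3), and without it from 1.95 ± 0.611 to 1.12 ± 0.274 CPM. Ileum markers summed to 603 ± 81.2 CPM in control and 583 ± 113 CPM in Hdac1/2-deleted IEC. Of 6 tested, 3 were higher and 0 lower by adjusted p, and the median log2 fold change was 0.74. Only Slc10a2 was increased (2.48, and 3.27 without C1). It did not pass without C3-3 (edgeR BH-adjusted p = 0.059), H1 or H9 (0.054 each). Colon markers summed to 36.4, 201 and 47.3 CPM in the control mice and 10.9, 48.5 and 14.5 CPM in the Hdac1/2-deleted mice. Without Aqp8, the colon sum was 29.2 ± 5.94 and 24.4 ± 20.6 CPM. Of 6 tested colon markers 3 were decreased, among them Aqp8 (-8.13, and -5.88 without C3) and Ly6g6c (-3.89, and -3.06 without C3). The edgeR BH-adjusted p of Aqp8 was 0.055 without H1 and 0.067 without H9, and that of Ly6g6c was 0.059 without H1 and 0.053 without H5.

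Cells from outside the epithelium left little RNA. T lymphocyte markers, led by Gzma, summed to 120, 447 and 388 CPM in the control mice and 56.8, 143 and 110 CPM in the Hdac1/2-deleted mice. Stromal markers summed to 56.9, 41.1 and 14.2 CPM in the control mice and 9.53, 10.6 and 13.0 CPM in the Hdac1/2-deleted mice. Myh11 of that list was at 25.4, 12.6 and 0.452 CPM in the control mice and had 1 count at most in any mutant mouse, but did not pass without H1 (edgeR BH-adjusted p = 0.12) or H9 (0.066). Myeloid markers summed to 73.2 to 80.7 CPM in control and 34.9 to 47.1 CPM in mutant mice, and without Cd14, which was decreased, to 19.9 ± 6.29 and 26.2 ± 8.71 CPM. Csf1r of the same list was increased (edgeR BH-adjusted p = 0.0023). The B cell marker Cd79b went from 1.15 to 32.7 CPM, whereas Ms4a1 was at 0.113 CPM in control and 0.0421 CPM in Hdac1/2-deleted IEC. Markers of pancreatic acinar cells summed to at most 20.3 CPM in any mouse, of which Cela1 made up most. The part of these differences in the values of the transporters was not tested. Of 3 genes best known from liver, Alb was decreased (0.910 ± 0.0941 against 0.259 ± 0.0516 CPM), while Ttr rose from 1.56 ± 0.246 to 26.3 ± 22.9 CPM (log2 fold change 4.07, and 3.07 without H9) and Serpina1a from 0.106 ± 0.0955 to 0.940 ± 0.457 CPM (3.13, and 4.15 without C3).

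**Figure D5:**
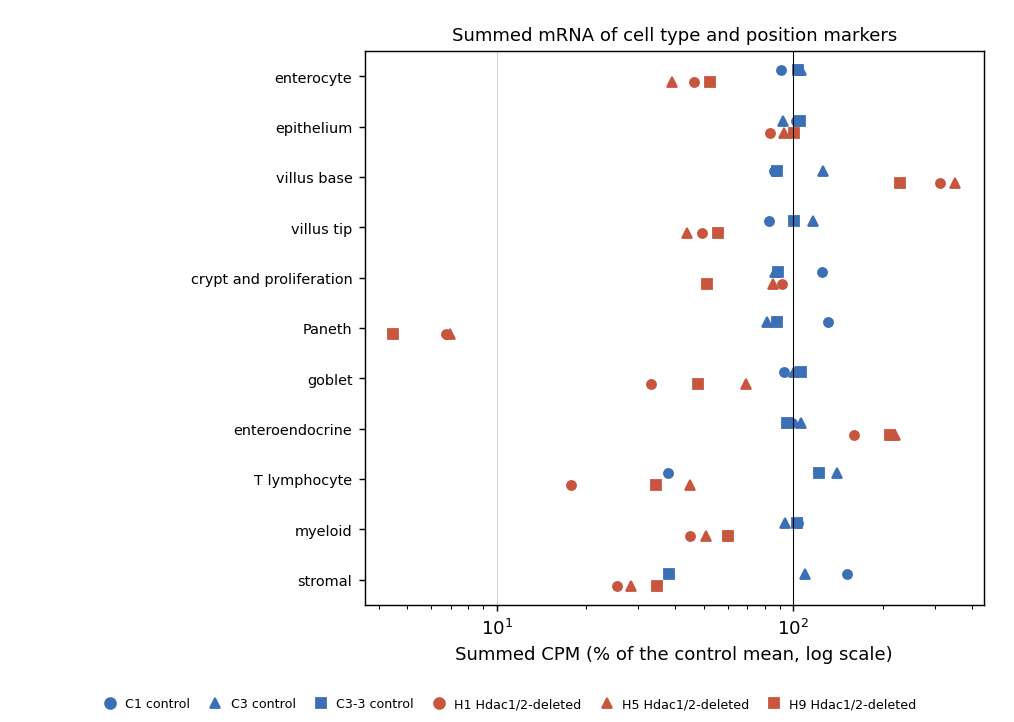
Summed CPM of each list of cell type or position markers in each mouse, as a percentage of the control mean (log axis). Epithelial markers lie near 100% in all mice. In all 3 Hdac1/2-deleted mice villus base sums are higher, mostly through Reg3b and Reg3g, and enterocyte, villus tip and Paneth cell sums are lower.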

How the data were processed

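RNA-Seq counts of jejunal IEC from 3 control and 3 Hdac1/2-deleted mice were compared. The submitters' processing notes name bcl2fastq 1.8.4 and STAR 2.4.0f1. The labels give the build mm9 and the study's methods give GRCm38, while the read counter, annotation and strand setting are not given in the sources used here. The authors deposited whole-number counts per gene and mouse without normalization, and all values were computed from these. The authors also deposited a normalized score per gene and mouse, which is the count times nearly 1 factor per sample, rounded, and was used only to check the unit. The log2 fold changes, mean levels and p-values of the authors' comparisons in the same deposited table were not used.

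Genes were filtered with filterByExpr of edgeR 4.0.16, which kept 15618 of 19616. Counts were scaled by TMM and tested with a robust quasi-likelihood F test (R 4.3.3, prior count 0.125, common biological coefficient of variation 0.274). Standard errors were computed as the log2 fold change divided by the square root of F. The fit was tested on simulated data. Totals ran from 36111035 to 65902344 counts per mouse, and 3 counts, taken as the floor, equal 0.0405 to 0.0790 CPM on the TMM scale, which covers counting error only. Lengths and positions came from GENCODE M21 (GRCm38) and promoters from RefSeq. Plots and permutation tests used Python 3.11.15, matplotlib 3.10.9 and SciPy 1.17.1. Alternatives were DESeq2 1.42.0 size factors and test, limma-voom (limma 3.58.1), upper-quartile factors, library totals only, no filter, at least 10 counts in every sample, a fit that was not robust, an adjusted p of 0.01, no fold limit, and each mouse left out. The transporters and the lists of other genes were chosen with earlier results of these data known. All transporters are named, with values of each mouse for those increased or decreased and for the most abundant per kilobase of each role. Genes of the other lists are named where they were increased or decreased, or where they are best known for the function of the list, and some of these genes and 1 motif are not reported here.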

Additional observations from a re-analysis of the deposited data

How the results depend on the processing

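Of the 19 transporters that were increased or decreased, 14 kept their direction and their side of both limits under every refit in which they were tested, which were 14 refits, and 13 for Slc43a1 and Slc6a20b, which had fewer than 10 counts in 1 mouse each. The exceptions were Slc5a4a, Slc2a1, Slc1a4, Slc46a1 and Slc5a8, and none of the 19 reversed. At an adjusted p of 0.01, 6 were increased and 9 decreased. The log2 fold change of Slc5a1 turned to 0.17 with library totals only, 0.01 with limma-voom, 0.30 without C3-3 and 0.11 without H5, and was lowest without C3 (-0.19). Slc2a5 turned to 0.09 with library totals, 0.02 with limma-voom and 0.40 without C3-3 (-0.46 without C1), and Slc2a7 to -0.18 without C1 and -0.01 without H1 (1.24 without C3-3). Slc7a7 turned to -0.03 without C1, -0.05 without C3 and -0.07 without H9 (0.31 without C3-3), and Slc7a1 to -0.04 without H5 (0.38 without H9). Slc43a2 turned to 0.01 with library totals and 0.11 without C3-3 (-0.43 without C1), and Slc5a6 to 0.03 with library totals and 0.19 without C3-3 (-0.38 without C1). Slc38a2 turned to 0.16 with library totals, 0.15 without C3 and 0.06 without H9 (-0.14 without C3-3). For these reversals the cause was not tested. Without a fold limit, 3198 genes were increased and 3168 decreased, in place of 1944 and 1990, because the rule then drops the 2-fold limit. No paired analysis was possible because the names of the mice share only the number 1 (C1 and H1) between the groups. With 3 mice per group and the lowest depth in H5, differences that are small beside the spread between mice can be missed.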
